A study of Bos taurus with 6 samples.

Results

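The genes described here are 35 components of the unfolded protein response and of the folding machinery of the endoplasmic reticulum (ER), measured in cultured bovine granulosa cells (GC), the hormone-producing cells that line the ovarian follicle. They were taken as the rows of the deposited signal table whose gene symbol equals 1 of 35 listed names. All 35 were present, each with 1 transcript cluster, the unit by which the array measures a gene, out of 26773 transcript clusters in the table. By role they comprise 6 sensors and regulators, 12 chaperones and their cofactors, 7 enzymes of disulfide formation, 8 genes of ER degradation and 2 genes of translocation and export. The symbols ERO1L and ERO1LB of the table are now written ERO1A and ERO1B.

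Total RNA of 6 cultures was hybridized to Bovine Gene 1.0 ST arrays. In 3 cultures 100000 cells were plated per well (normal density), and in the other 3 cultures 1000000 cells (high density). Both densities were kept for 9 days in serum-free α-MEM on collagen. The medium was the same for both and held androstenedione (2 μM), 20 ng/ml of FSH and 50 ng/ml of R3 IGF-1, besides insulin, transferrin and selenite. The cells were cryopreserved pools aspirated from follicles of abattoir ovaries, with many cows of unknown cycle stage in each pool. The methods count 6 GC preparations, 3 per density, and describe preparations as cell pools. The labels do not say whether cultures of a density stem from separate pools, so the p-values measure the spread between these cultures, which may be technical.

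In the ER, secreted and membrane proteins are folded by chaperones such as BiP and by enzymes that form disulfide bonds, and proteins that fail to fold are returned to the cytosol and degraded. When unfolded proteins accumulate, 3 membrane sensors respond. IRE1, encoded by ERN1, splices the mRNA of XBP1 into the form for an active transcription factor. PERK, encoded by EIF2AK3, phosphorylates the initiation factor eIF2α, which lowers translation in general and favours that of ATF4, and ATF6 is cleaved in the Golgi to release a transcription factor. PERK shares eIF2α phosphorylation with kinases that respond to other stresses, such as lack of amino acids. Granulosa cells secrete peptide hormones and extracellular matrix, which pass through this machinery.

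Signals are log2 values after RMA, and a log2 fold change is the mean at high density minus that at normal density, with its standard error (SE) or 95% confidence interval from limma's moderated test. A gene is termed called at an FC above 1.5 in size, which is 0.585 on the log2 scale, with a p-value and an FDR below 0.05 (Benjamini-Hochberg over all transcript clusters). The 95th percentile of 82 reporter control rows, 4.62, serves as background level. Errors of means are SD (n = 3). With 3 cultures per density, exact permutation tests cannot go below p = 0.1. The number of arrays limits the precision. In such RNA from whole cultures, fewer cells of a type and less RNA per cell cannot be told apart.

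The labelled cell type was checked on 8 granulosa markers, all of which were above the background level in at least 1 group. Among them 5, such as FSHR and CYP19A1, were down-regulated and 1, HSD17B1, was up-regulated at high density. CYP11A1, the strongest of the 8, was at 0.26 on the log2 scale and passed the FDR threshold alone. The log2 of the summed granulosa signals was 11.88 to 12.04 at normal and 11.57 to 11.64 at high density. All 5 leukocyte, 4 of 5 endothelial and 3 of 4 surface epithelium markers were below the background level at both densities. The summed signal of the red blood cell markers was 4.83 to 4.88 at normal and 9.21 to 9.82 at high density, where HBA was called and HBB and ALAS2 were below the background level. For the theca markers it was 7.22 to 7.34 and 8.92 to 9.21, where INSL3 was called and CYP17A1 was below the background level. The fibroblast markers summed to 12.27 to 12.31 at normal and 12.37 to 12.41 at high density, above the granulosa markers at both. The share of other cell types in the cultures was not tested. THY1, at 1.71 on the log2 scale, was called and PDGFRA, at 0.32, passed the FDR threshold alone. The fibroblast markers with the strongest signals, LUM at 0.01 and DCN at 0.17, passed neither threshold. The part of these marker differences in the values of the UPR genes was not tested.

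For most of the UPR and ER chaperone genes, the signals at both plating densities differed by less than the FC threshold. ERO1L, the oxidase that drives disulfide formation, was up-regulated 2.81-fold, and EDEM1, a lectin that directs misfolded glycoproteins to degradation, 1.52-fold. With limma no member was called down-regulated, and the methods' t-test called 0 as well. At an unadjusted p below 0.05, 11 members were higher and 6 lower at high density, beside 15.1% and 17.2% of all transcript clusters and 19.5% and 28.8% of those above the background level. The 2 called members are 5.71% of the 35, while 7.49% of all transcript clusters were called and 12.8% of those above the background level, so the share was not above that of other genes. Up-regulation was called for 3.97% and down-regulation for 3.51% of all transcript clusters, and above the background level 6.95% and 5.86%. Without the FC threshold, 10 members passed the FDR threshold, 8 with higher and 2 with lower signals at high density, which is 28.6% of the members beside 19.1% of all transcript clusters and 31.9% of those above the background level. In the 2 directions these shares were 8.64% and 10.4% of all and 13.4% and 18.5% of those above the background level. The count of 10 was 4 or 5 when any normal density culture or high density replicate 3 was left out, 6 in the absence of high density replicate 1 and still 10 in that of replicate 2. The 2 groups of cultures did not overlap for 18 members, with high density above in 12 and below in 6. Over all transcript clusters 37.3% did not overlap (17.8% above, 19.5% below), and above the background level 54.8% (22.1% above, 32.8% below). The median log2 fold change of the members was 0.03. That of all transcript clusters was 0.02, and that of those above the background level was −0.055.

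For 30 of the members the whole 95% interval lay inside the FC threshold in both directions, which was the case for 76.6% of all transcript clusters. The others were ERO1L, ERO1LB, EDEM1, HERPUD1 and PPP1R15A. Signals of 34 members lay above the background level in at least 1 group, and DERL3 lay below it at both densities.

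**Figure D1:**
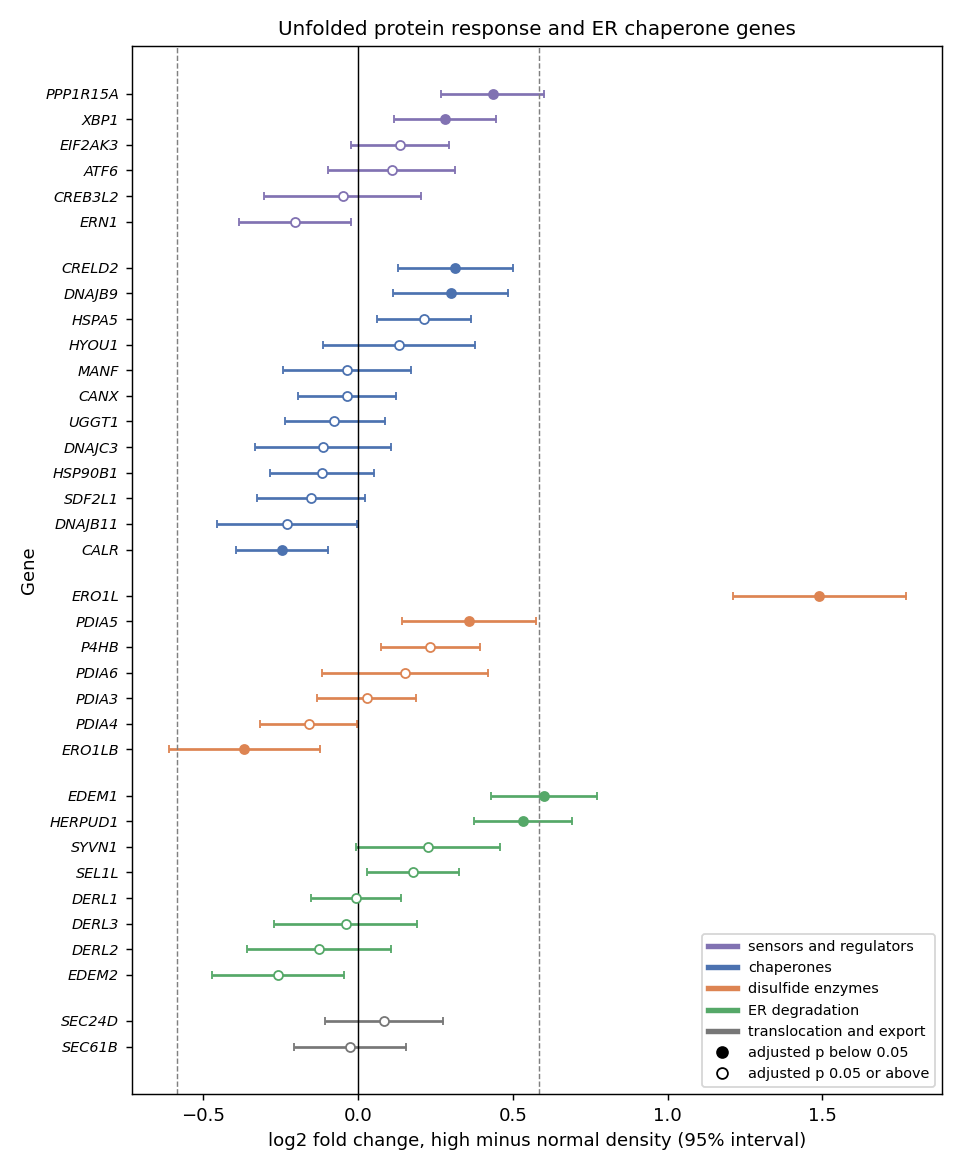
log2 fold changes of the 35 genes, high minus normal density, with 95% intervals from limma, grouped by role. Dashed lines mark the FC threshold of 1.5 in both directions. ERO1L stands apart at 1.49, EDEM1 lies just past the threshold at 0.60 and HERPUD1 just inside it at 0.53, while most intervals of the other genes lie between the dashed lines.

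Among the disulfide enzymes the 2 ERO1 paralogs differed in direction. ERO1L (transcript cluster 12687495) had signals of 6.86, 6.69 and 6.79 in the normal density cultures and of 8.26, 8.50 and 8.05 in the high density cultures. Every high density culture was above every normal density culture, by more than 1 log2 unit. The means were 6.78 ± 0.08 and 8.27 ± 0.23, a log2 fold change of 1.49 (SE 0.12, limma's adjusted p = 2.30e-04). It was between 1.38 and 1.60 with each culture left out and called each time. Of the 1064 transcript clusters called up-regulated, 172 had a larger log2 fold change.

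ERO1LB (12828057), the second ER oxidase, had signals of 6.39, 6.59 and 6.59 at normal density and of 5.97, 6.21 and 6.28 at high density. The groups did not overlap, with high density below. Its log2 fold change of −0.37 (95% interval −0.61 to −0.12, limma's adjusted p = 0.0472) passed the FDR threshold and not the FC threshold, and the adjusted p was between 0.0511 and 0.152 with a culture left out. ERO1LB passed the FDR threshold in 5 of all 13 alternative fits. The log2 difference ERO1L minus ERO1LB within a culture averaged 0.26 ± 0.19 in the normal and 2.12 ± 0.30 in the high density cultures. High density thus exceeded normal density by 1.86 in this difference, a pair of genes chosen after its values were seen (exact permutation test, two-sided, p = 0.1, the smallest possible, and 0.1 after Benjamini-Hochberg adjustment over 3 pairs of paralogs). Since both genes were without overlap and in opposite directions, this outcome was fixed, and the test adds no support.

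ERO1 oxidases pass their oxidizing power to protein disulfide isomerases, which introduce and reshuffle the bonds in client proteins. None of the 5 isomerases was called. PDIA5 (12679876) had signals of 7.36, 7.52 and 7.20 at normal density and of 7.73, 7.73 and 7.70 at high density, so that the high density cultures were closer together than the normal density ones. The groups differed by 0.36 (SE 0.09, limma's adjusted p = 0.0340), which passed the FDR threshold alone. PDIA5 passed it in 5 of the 13 alternative fits and in 1 of 6 with a culture left out, where the adjusted p was up to 0.106. P4HB (12760778), the classical isomerase and also a subunit of collagen prolyl 4-hydroxylase, was at 10.51, 10.48 and 10.39 and at 10.67, 10.72 and 10.69, with no overlap. The log2 fold change of P4HB was 0.23 (95% interval 0.07 to 0.39, limma's adjusted p = 0.0527), short of the FDR threshold, which it passed in 4 of the 13 alternative fits (adjusted p between 0.0069 and 0.185 over all of them). PDIA4 was measured at −0.16 (95% interval −0.32 to −0.003), also without overlap, and PDIA3, which assists the lectin chaperones, at 0.03 (95% interval −0.13 to 0.19). PDIA6 had the widest interval of the isomerases, −0.12 to 0.42 around 0.15.

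**Figure D2:**
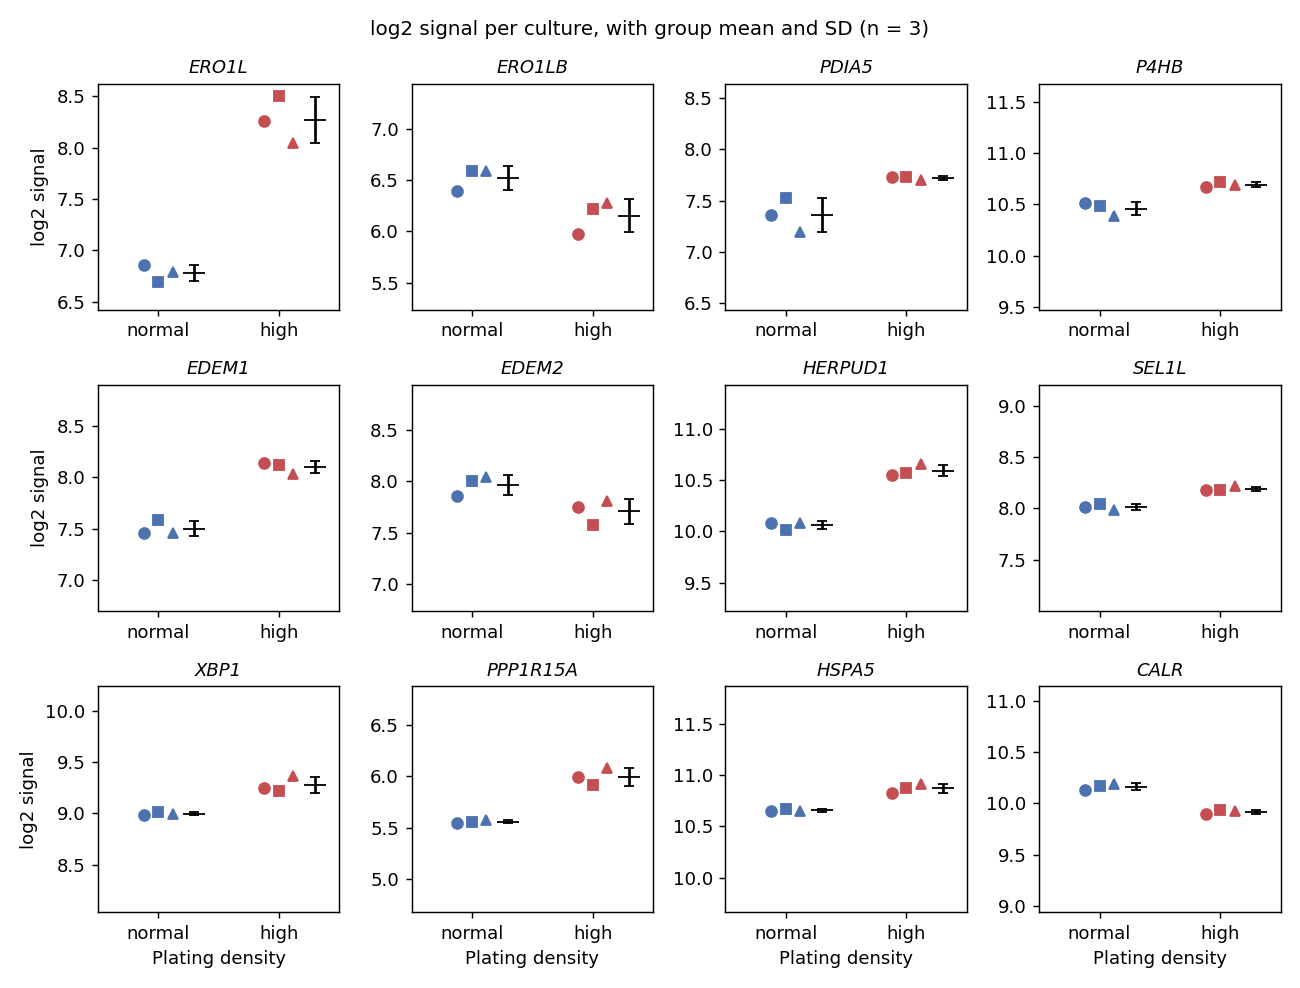
log2 signals of 12 members in each culture (circle, square and triangle for replicates 1, 2 and 3 of a density), with the group mean and SD (n = 3). All panels span the same log2 height, so distances can be compared between panels. The high density cultures lie above the normal density cultures for ERO1L, PDIA5, P4HB, EDEM1, HERPUD1, SEL1L, XBP1, PPP1R15A and HSPA5 and below them for ERO1LB, EDEM2 and CALR.

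The genes of ER degradation included the second called member and the one nearest to the FC threshold. EDEM1 (12798867) had signals of 7.46, 7.58 and 7.46 at normal density and of 8.14, 8.12 and 8.04 at high density. The groups were far apart compared with their spread. The log2 fold change of 0.60 (SE 0.07, limma's adjusted p = 0.00142) only just passed the FC threshold. With limma's array weights it was 0.578, with median centring of the arrays 0.557, and it was 0.579 to 0.580 when normal density replicate 1 or 3 or high density replicate 1 was left out. In these settings EDEM1 was not called. The adjusted p stayed at or below 0.0109 in these settings, so the call rested on the FC threshold and not on the spread.

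HERPUD1 (12753593), a membrane component of the degradation complex and a widely used target gene of the stress response, had signals of 10.08, 10.02 and 10.08 at normal density and of 10.55, 10.57 and 10.65 at high density. Its FC of 1.45 stayed below the threshold, with a log2 fold change of 0.53 (SE 0.07, 95% interval 0.37 to 0.69, limma's adjusted p = 0.00178). The FDR threshold was passed in all of the 13 alternative fits, and the log2 fold change was between 0.50 and 0.55 with each culture left out.

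The ubiquitin ligase of this pathway, SYVN1, and its partner SEL1L did not pass limma's FDR threshold here, but passed it in 2 and 4 of the 13 alternative fits. SEL1L (12697110) was at 8.01, 8.04 and 7.99 at normal and at 8.18, 8.18 and 8.21 at high density, without overlap and with a log2 fold change of 0.18 (95% interval 0.03 to 0.33, limma's adjusted p = 0.0961, and 0.0164 to 0.257 over the alternatives). SYVN1 (12833302) was at 7.81, 7.78 and 7.75 and at 8.10, 7.80 and 8.12. High density replicate 2 thus fell within the normal density range. The log2 fold change of SYVN1 was 0.23 (limma's adjusted p = 0.167) and 0.33 without that replicate (adjusted p = 0.0113), and with array weights the adjusted p was 0.0202.

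EDEM2, a mannosidase that acts at an early step of glycan trimming, was lower at high density with a log2 fold change of −0.26 (95% interval −0.47 to −0.04, limma's adjusted p = 0.0955, and below 0.05 in 2 of the 13 alternative fits). Its signals of 7.86, 8.01 and 8.04 and of 7.75, 7.57 and 7.81 did not overlap. The log2 difference EDEM1 minus EDEM2 was −0.47 ± 0.10 at normal and 0.39 ± 0.16 at high density, without overlap (exact permutation test, two-sided, p = 0.1, the smallest possible). This pair was chosen after its values were seen, so the test adds no support. The derlins are membrane proteins of the retrotranslocation step. DERL1 had log2 signals between 10.35 and 10.39 in all 6 cultures, the narrowest range of the 8 genes, and a log2 fold change of −0.01 (95% interval −0.15 to 0.14). DERL2 was measured at −0.13 (95% interval −0.36 to 0.11) and DERL3, below the background level, at −0.04 (95% interval −0.27 to 0.19).

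The 3 sensors did not pass the FDR threshold with limma or in any of the 13 alternative fits, and no sensor or regulator was called with limma or with the methods' t-test. At an unadjusted p below 0.05, 2 of these 6 genes were higher and 1 was lower at high density. Of all transcript clusters above the background level, 19.5% were higher and 28.8% lower at that p. ERN1 (12771139) had signals of 6.55, 6.58 and 6.50 at normal and of 6.42, 6.23 and 6.37 at high density. The log2 fold change of ERN1 was −0.20 (95% interval −0.38 to −0.02, limma's adjusted p = 0.113). EIF2AK3 (12701692) had signals of 7.77, 7.89 and 7.84 and of 7.95, 7.98 and 7.98, and the difference of its means was 0.14 (95% interval −0.02 to 0.29, limma's adjusted p = 0.213). Both were without overlap, but in opposite directions.

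ATF6 (12845899) had signals of 9.34, 9.27 and 9.27 at normal density and of 9.34, 9.57 and 9.31 at high density, where replicate 2 was highest and replicates 1 and 3 were close to the normal density cultures. ATF6 had a log2 fold change of 0.11 (95% interval −0.10 to 0.31, limma's adjusted p = 0.446). CREB3L2 (12856171), a related membrane-bound factor that controls genes of the secretory pathway, was at 8.27, 8.33 and 8.05 and at 8.26, 7.99 and 8.25, with overlapping groups. Its log2 fold change of −0.05 (95% interval −0.30 to 0.20) changed sign to 0.04 without high density replicate 2.

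Downstream of the sensors, 2 regulators passed the FDR threshold. XBP1 (12747918) was at 8.98, 9.01 and 8.99 at normal density and at 9.25, 9.22 and 9.37 at high density. Each high density culture was above the normal density range, and the log2 fold change was 0.28 (SE 0.07, limma's adjusted p = 0.0307), between 0.24 and 0.31 with a culture left out. The adjusted p was then below 0.05 in 1 of 6 fits, and in 6 of all 13 alternative fits. The signal per transcript cluster does not separate the spliced from the unspliced XBP1 mRNA. PPP1R15A (12751650), also known as GADD34, guides a phosphatase to eIF2α and so restores translation. Its signals were 5.55, 5.56 and 5.57 at normal density and 5.99, 5.91 and 6.08 at high density. Every high density culture was above the normal density range. The log2 fold change was 0.43 (SE 0.07, limma's adjusted p = 0.00551), less than the FC threshold, and the FDR threshold was passed in all 13 alternative fits.

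None of the 12 chaperones and cofactors was called with limma or with the methods' t-test. At an unadjusted p below 0.05, 3 were higher and 2 lower, beside 19.5% and 28.8% of transcript clusters above the background level. The log2 fold changes of the 12 ranged from −0.25 to 0.31 with a median of −0.06. Signals were higher at high density for 4 of them and lower for 8. Over all transcript clusters above the background level the median was −0.055, and 42.5% were higher. The chaperone median was thus near that of other genes. The FDR threshold alone was passed by CRELD2, DNAJB9 and CALR. CRELD2 (12859629), a stress-inducible protein of the ER, was at 5.79, 5.81 and 5.84 at normal and at 5.99, 6.20 and 6.19 at high density. The difference of the means was 0.31 (SE 0.08, limma's adjusted p = 0.0322). DNAJB9 (12855730), a J-domain cofactor of BiP that also restrains IRE1, was at 6.17, 6.21 and 6.17 and at 6.36, 6.58 and 6.51. For DNAJB9 it was 0.30 (SE 0.08, limma's adjusted p = 0.0377). Both genes kept the FDR threshold in 2 of the 6 fits with a culture left out, and in 6 of all 13 alternative fits.

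CALR (12883064), the soluble lectin chaperone that also stores calcium, went the other way, with signals of 10.13, 10.17 and 10.19 at normal and of 9.90, 9.93 and 9.92 at high density. CALR had a log2 fold change of −0.25 (SE 0.06, limma's adjusted p = 0.0346), without overlap, and between −0.26 and −0.23 with a culture left out. The adjusted p of CALR was then below 0.05 in 1 of 6 fits, and in 7 of all 13 alternative fits. The membrane-bound lectin chaperone CANX (12883543) overlapped between densities, with signals of 11.08, 11.11 and 11.12 and of 11.05, 11.14 and 11.01, and its means differed by −0.04 (95% interval −0.20 to 0.12). The log2 difference CALR minus CANX was −0.94 ± 0.01 at normal and −1.15 ± 0.06 at high density (exact permutation test, two-sided, p = 0.1, the smallest possible). This pair too was chosen after its values were seen, so its test adds no support either.

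HSPA5 (12704208) encodes BiP, the central chaperone of the ER lumen and the partner that keeps the sensors inactive. It was at 10.65, 10.67 and 10.65 at normal density and at 10.82, 10.88 and 10.91 at high density. The groups did not overlap and the log2 fold change was 0.21 (SE 0.07, 95% interval 0.06 to 0.36), but limma's adjusted p of 0.0608 missed the FDR threshold. With each culture left out it was between 0.0515 and 0.175. HSPA5 passed in 4 of the 13 alternative fits, with an adjusted p of 0.0215 for the methods' t-test, 0.00554 for trended and robust eBayes, 0.0251 for array weights and 0.0219 for the transcript clusters above the background level. HSP90B1 (12857285), the HSP90 chaperone of the ER, was at 10.56, 10.59 and 10.63 and at 10.42, 10.57 and 10.45, and its log2 fold change was −0.11 (95% interval −0.28 to 0.05, limma's adjusted p = 0.322). BiP and this chaperone are classical co-induced proteins of the stress response. Here neither gene passed limma's FDR threshold, and the groups of HSP90B1 overlapped, so the sign of its difference is uncertain.

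The other chaperones had intervals that include zero, except DNAJB11, which is described with the spread of the cultures. HYOU1, the exchange factor of BiP, had a log2 fold change of 0.13 (95% interval −0.11 to 0.38). UGGT1, which senses the folding state of glycoproteins, had −0.08 (95% interval −0.24 to 0.09), SDF2L1 −0.15 (95% interval −0.33 to 0.02) and MANF −0.03 (95% interval −0.24 to 0.17). DNAJC3, which inhibits PERK, had −0.11 (95% interval −0.33 to 0.11). The translocon subunit SEC61B had −0.03 (95% interval −0.21 to 0.16), and SEC24D, a cargo subunit of the COPII coat, 0.08 (95% interval −0.11 to 0.27).

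The high density cultures differed among themselves more than the normal density cultures. The SD at high density was the larger one for 25 of the 35 members, with a median of 0.10 against 0.04 at normal density. Over all transcript clusters above the background level, 74.9% had the larger SD at high density. High density replicate 2 was the highest of its group for 45.3% and the lowest for 40.2% of all transcript clusters above the background level. Among the 35 members it was the highest for 18, with 9 of the 12 chaperones and 5 of the 7 disulfide enzymes. DNAJB11 (12683918), a cofactor of BiP, shows this pattern. It was at 7.46, 7.49 and 7.48 at normal density and at 7.10, 7.44 and 7.20 at high density, where only replicate 2 was close to the normal density cultures. Its log2 fold change was −0.23 (95% interval −0.46 to −0.004, limma's adjusted p = 0.148), and −0.33 without replicate 2 (adjusted p = 0.0144). With array weights the adjusted p was 0.0233.

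In ER degradation, replicate 2 was the highest of its group for 1 gene, DERL2, at 8.50 against 8.16 and 8.27. It was the lowest for 4 genes, among them SYVN1. For HYOU1 it was also the lowest, at 8.07 against 8.37 and 8.39. Without this culture, 2 members were called as before, and the median log2 fold change of the chaperones was −0.11.

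**Figure D3:**
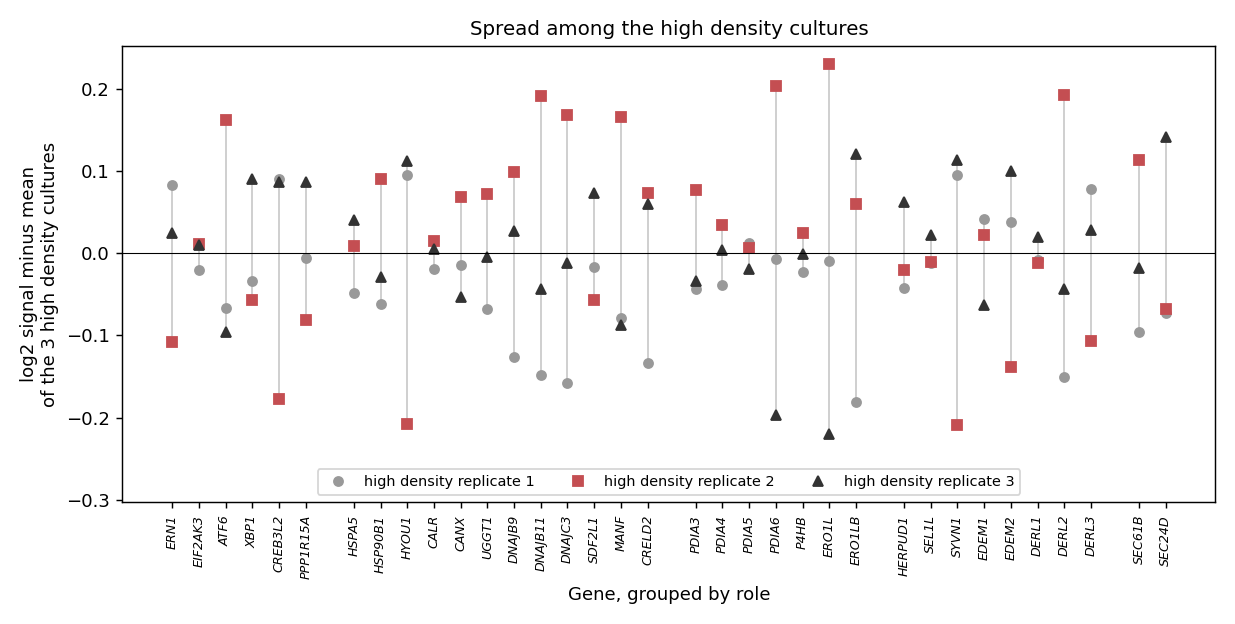
Deviation of each high density culture from the mean of the 3 high density cultures, in log2 units, for the 35 members grouped by role. Replicate 2 (squares) lies farthest from the other cultures for many genes, above them for DNAJB11, DNAJC3, MANF and DERL2 and below them for HYOU1, SYVN1 and CREB3L2.

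Other genes of the pathway were examined on 7 lists with 124 symbols, of which 121 were found. By the same thresholds 9 of the 121 were called, 7.44%, beside 7.49% of all transcript clusters and 12.8% of those above the background level. Only 4 of the 121 lay below that level at both densities. The median log2 fold change of the 121 was 0.003, beside −0.055 for all transcript clusters above the background level. Most of the called genes lay on 1 list, the further signalling genes of the response, with 6 of 19 up-regulated and 1 down-regulated. Above the background level 6.95% of transcript clusters were called up-regulated and 5.86% down-regulated. The lists were written with earlier results of these data known, the rise of CHAC1 among them. How far this choice of genes set the share of that list was not tested.

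CHAC1, a glutathione-degrading enzyme induced by ATF4, had signals of 4.39, 4.37 and 4.42 at normal density and of 7.65, 7.19 and 7.65 at high density. It rose by 3.10 on the log2 scale (SE 0.13, limma's adjusted p = 2.05e-05). TRIB3, a pseudokinase and target of ATF4 and CHOP, rose by 1.83 on the log2 scale (SE 0.16, limma's adjusted p = 3.42e-04). At normal density neither gene was above the background level, so the sizes of both rises are uncertain. ATF4 itself and DDIT3, which encodes CHOP, are named here after their values were seen. ATF4 was at 8.62, 8.85 and 8.73 and at 9.53, 9.54 and 9.54, with 0.80 between the means (limma's adjusted p = 5.51e-04), and DDIT3 had a log2 fold change of 1.13 (limma's adjusted p = 2.74e-04). The remaining up-regulated genes of this list were CREB3L1 and ATF3. MAP3K5, the stress kinase ASK1 that acts downstream of IRE1, fell by 1.16 on the log2 scale (SE 0.12, limma's adjusted p = 7.38e-04).

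On the lists of the folding and transport machinery few genes were called. Among 33 other folding factors QSOX1, a sulfhydryl oxidase, was up-regulated with a log2 fold change of 0.65 (SE 0.08, limma's adjusted p = 0.00131). Of 15 other genes of translocation and signal peptidase, SEC11A was down-regulated with a log2 fold change of −0.74 (SE 0.21, limma's adjusted p = 0.0476). Its signals at high density were 8.20, 9.01 and 8.22, and it was not called when any culture other than high density replicate 2 was left out. None of 20 other ER degradation genes, 10 subunits of the oligosaccharyltransferase, 11 other COPII genes and 13 retrieval and COPI genes was called with limma or the methods' t-test. At an unadjusted p below 0.05 the numbers higher and lower at high density were 2 and 5, 0 and 4, 0 and 2, and 4 and 0 in that order. Of all transcript clusters above the background level, 19.5% were higher and 28.8% lower at that p. By the FDR threshold alone, 4 of the 10 oligosaccharyltransferase genes were lower at high density and none higher, and the same held for 4 of the 20 other ER degradation genes. All genes of both lists were above the background level in at least 1 group, where 18.5% of transcript clusters were lower and 13.4% higher by the same threshold, so the share of the ER degradation list was near that of other genes.

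**Figure D4:**
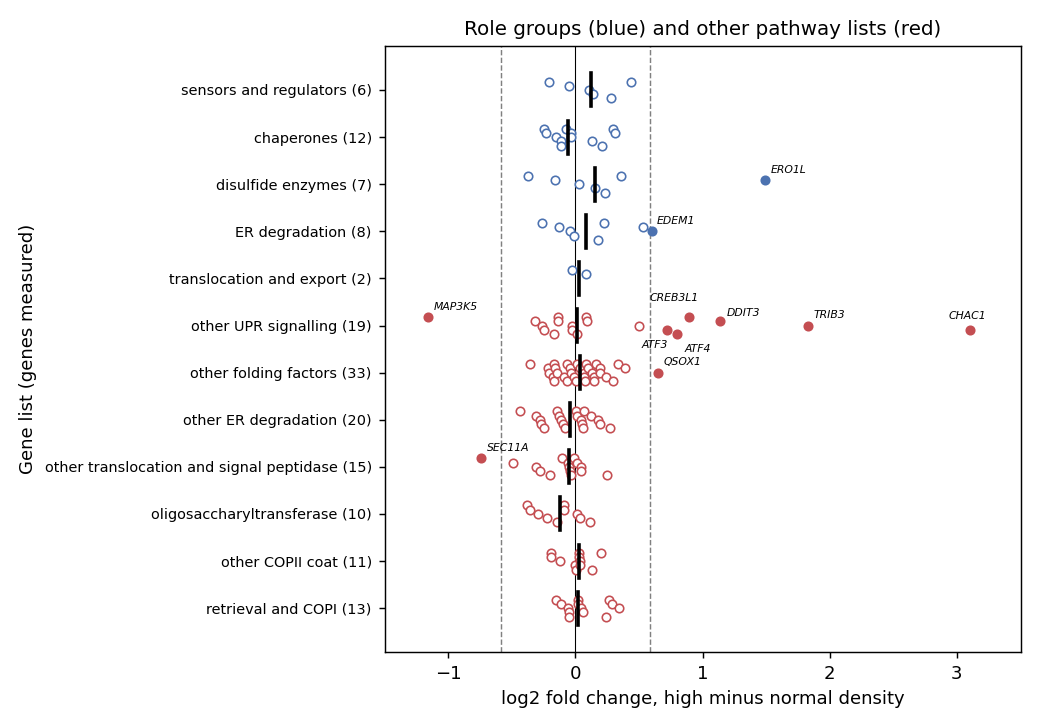
log2 fold changes, high minus normal density, of the 35 members by role (blue) and of 121 other pathway genes by list (red). Filled points are called genes, black bars are list medians and dashed lines mark the FC threshold. Most called genes lie on the list of other UPR signalling genes, from MAP3K5 at −1.16 to CHAC1 at 3.10. All lists were written with earlier results of these data known. The medians of all lists lie between −0.12 and 0.15.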

How the data were processed

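The authors scanned 6 Bovine Gene 1.0 ST arrays, 1 per culture, and processed them in Expression Console with RMA (background reduction, normalization and gene-level summary). The deposited table holds these log2 signals per transcript cluster, and the submitters' processing notes also name Transcriptome Analysis Console 3.0. No further normalization was applied, and the table has 0 columns of other samples. All 26773 transcript clusters were fitted with limma 3.58.1 in R 4.3.3 (lmFit, eBayes, no covariates), the groups being those of the labels, with the thresholds of the methods. RMA estimates signals near the background level poorly, so fold changes from there are compressed.

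The members, their roles and all gene lists were chosen with earlier results of these data known. All members are named, and every culture's value is given for called members, for sensors and regulators, for members whose call depends on a setting, and for the 3 with the highest mean signal. Other members given with every culture's value, and the pairs of paralogs, were chosen after their values were seen. Of the other lists, at most 2 rises and 2 falls each are named, with exceptions given in the text. Symbols with 2 transcript clusters, 2 on the other lists, are represented by the stronger one. For 24 members the accession was found in the RefSeq table of the assembly ARS-UCD2.0 and carried the same name.

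The alternatives changed 1 choice each. They comprised the methods' t-test (their analysis of variance for 2 groups), a trended and robust eBayes fit, weighting of arrays, blocking on replicate number, centring on the median, quantile normalization, a filter at the background level, other thresholds, averaging of transcript clusters and omission of each culture. Scripts were tested on simulated data. Figures used matplotlib 3.10.9 in Python 3.11.15. Promoter motifs and protein ends were not analysed here.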

Additional observations from a re-analysis of the deposited data

How the results depend on the processing

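At the FC and FDR thresholds the number of called members was 2, both up-regulated, and it was 1, ERO1L alone, with array weights and with median centring, 1 to 2 on leaving out single cultures, and 2 with the methods' t-test, the replicate block, trended and robust eBayes, quantile normalization, the filter at the background level and an FDR below 0.01. With the FDR threshold alone it was 10, of which 8 were higher and 2 lower. This last count was chosen after seeing the data, and it was 5 with the replicate block, 4 to 10 on leaving out single cultures and 7 to 15 in the other fits. The call of EDEM1 was the one lost, with log2 fold changes of 0.578 (array weights), 0.557 (median centring), and 0.579 to 0.580 without normal density replicate 1 or 3 or high density replicate 1. Of the other pathway genes 9 were called, 7 up and 2 down. With the FDR threshold alone it was 24, 12 up and 12 down. The down-regulated number was 1 with the methods' t-test, the replicate block or an FDR below 0.01, and 1 to 3 on leaving out single cultures. SEC11A was the gene that lost its call, with an adjusted p of up to 0.18. The median log2 fold change of the chaperones, −0.06, was −0.10 with median centring and −0.114 to −0.032 on leaving out single cultures. That of ER degradation, 0.09, was 0.042 with median centring and 0.179 above the background level, where DERL3 drops out. That of translocation and export, 0.029, was −0.015 with median centring and −0.002 without high density replicate 3.

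Signs turned only for members that were not called. On leaving out single cultures, CREB3L2 was between −0.132 and 0.039 and above 0 for 2 omissions, MANF between −0.117 and 0.009 (2 omissions above 0), PDIA3 between −0.010 and 0.050 (1 below 0), DERL1 between −0.016 and 0.004 (1 above 0), DERL3 between −0.129 and 0.013 (2 above 0 and 1 at 0.000) and SEC61B between −0.083 and 0.022 (1 above 0). With array weights CREB3L2 was at 0.009 and DERL1 at 0.002. PDIA3 was at −0.015 with median centring and −0.002 with quantile normalization, where SEC61B was at 0.020. The causes were not tested.

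The replicate numbers were not taken as pairs in the main fit. Deviations of same-numbered cultures from their group means correlated at 0.046, −0.046 and −0.041 over all transcript clusters, and not every culture correlated best with its own number. The labels do not say whether same-numbered cultures share a pool, and these correlations cannot exclude it. Motif matches could not be counted without promoter sequences. Signals near the background level limit what can be measured for DERL3.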
